A study of Rattus norvegicus with 32 samples.

Results

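Cholesterol synthesis in rat liver was followed through genes that SREBF2 activates, together with Srebf2 itself, after the animals breathed ozone. The set was chosen by symbol, with earlier results of these data known. It held 8 genes, Hmgcs1, Sqle, Fdft1, Msmo1, Srebf2, Insig1, Idi1 and Cyp51. A gene entered through its single-gene probe sets in the platform annotation, and its brightest probe set over the 32 arrays stood for it. Of the 8 genes, 7 had such a probe set, and Hmgcs1 was not analysed here. All 7 passed the filter on dim probe sets, and they were 7 of the 11625 genes tested. Their mean levels lay between the 73.4th (Sqle) and the 96.8th (Insig1) percentile of the genes tested.

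Cells make cholesterol from acetyl-CoA through mevalonate, isoprenoid diphosphates, squalene and lanosterol, and liver is a main site of this synthesis. SREBF2 is a transcription factor made as a protein of the endoplasmic reticulum membrane, where it is bound to SCAP. When sterols in that membrane run low, SCAP carries it to the Golgi, where proteases free its active domain, which enters the nucleus and raises transcription of the pathway's enzymes. INSIG1 retains the SCAP-SREBP complex in the endoplasmic reticulum when sterols are plentiful, and its own gene is a target of SREBPs.

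Male Wistar Kyoto rats, 10 weeks old and 250 to 300 g, breathed ozone at 1 ppm or filtered air, and liver RNA was read on single-colour Affymetrix arrays. Ozone livers came from the end of a single exposure of 6 h (day 1, 6 arrays), from the end of another 6 h of exposure on the following day (day 2, 5 arrays), and from 18 h after that exposure (5 arrays), and each had air livers of the same harvest (6, 5 and 5 arrays). No genotype, transgene or drug set the groups apart. Whether every array came from its own rat is not stated in the labels, so the p-values measure the spread between these samples, and the number of arrays limits the precision. In whole liver, fewer cells of a type and less RNA per cell cannot be told apart.

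The sequences upstream of the start sites are shown for the gene with the largest fall on day 1 (Msmo1), for the regulator Srebf2, for the member whose day 1 difference had the opposite sign and came near the threshold (Insig1), and for a member that fell although no sterol regulatory element core was found in the stretch searched (Idi1). They are RefSeq sequences of the build GRCr8, written 5′ to 3′ on the gene's own strand, and capitals mark the motif matches. The searched stretch was the 250 bases upstream of the start, which RefSeq gives here for 5 of the 7 genes, Msmo1, Srebf2, Insig1, Idi1 and Cyp51.
Msmo1, chr16:29746863-29747112, plus strand, all 250 bases before the start: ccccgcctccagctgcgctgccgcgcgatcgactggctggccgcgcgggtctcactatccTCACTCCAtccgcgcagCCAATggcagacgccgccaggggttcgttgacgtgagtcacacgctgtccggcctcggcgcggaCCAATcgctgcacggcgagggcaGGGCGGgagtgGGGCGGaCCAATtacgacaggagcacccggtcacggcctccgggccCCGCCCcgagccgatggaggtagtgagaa
Srebf2, chr7:115543140-115543169, plus strand, a site of 30 bases that lies within the span of another annotated transcript of the gene: atgacgcgccaTCACCCCAtgagccgcttc
Insig1, chr4:8057813-8058019, minus strand, the 207 bases that lie outside another transcript of the gene: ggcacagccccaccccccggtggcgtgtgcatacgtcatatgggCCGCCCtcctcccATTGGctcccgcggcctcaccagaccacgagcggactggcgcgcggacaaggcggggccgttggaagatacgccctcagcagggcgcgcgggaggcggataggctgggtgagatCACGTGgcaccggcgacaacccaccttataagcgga
Idi1, chr17:66547525-66547774, minus strand, all 250 bases before the start: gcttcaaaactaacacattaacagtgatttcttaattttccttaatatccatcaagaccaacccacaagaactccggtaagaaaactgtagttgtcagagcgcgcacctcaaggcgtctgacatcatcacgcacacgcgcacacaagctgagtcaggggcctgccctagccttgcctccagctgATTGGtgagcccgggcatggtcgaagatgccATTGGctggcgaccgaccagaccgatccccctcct

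The motifs were searched on both strands as the letters TCACNCCA (the core of a sterol regulatory element, where N is any base), CACGTG (an E-box, which SREBPs can also bind), CCAAT (the box bound by NF-Y) and GGGCGG (the GC box bound by SP1), and no match overlapped another in the stretches searched. The sterol regulatory element core was found in 2 of the 5 stretches, as TCACTCCA in Msmo1 and TCACCCCA in Srebf2, and in 3.25% of the 27457 rat promoters of the same length. The E-box was found in Insig1 alone of the 5 and in 5.79% of all. The CCAAT box stood in 4 of the 5 (3 matches in Msmo1, 2 in Idi1, 1 each in Srebf2 and Insig1) and in 34.29% of all. The GC box stood in 4 of the 5, in each but Idi1, and in 32.39% of all. In the Cyp51 stretch, at chr4:30991443-30991692, a GC box was the only match. These matches describe letters in a window, and binding was not measured.

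All 32 arrays read as liver, with 8 of 9 hepatocyte markers measured (albumin, Apoa1, Apob, Ttr, Serpina1, Fgb, Cyp2e1 and Cps1). Each of the 8 lay at or above the 99th percentile of the genes tested on every array. Array medians lay between 147 and 161 units. Nonspecific-binding probes, whose signal remains in the values and shrinks the fold changes of dim genes, had medians of 54.3 (air replicate 2 of day 1) and 66.1 (ozone replicate 3 of day 1), against 85.2 to 92.0 on the other arrays. Over all genes tested, 7 arrays correlated better with the mean of another group than with their own. For 4 of them the closer group had the other exposure or lay across the 18 h between harvests. For ozone replicate 5 of day 2, Pearson's r was -0.25 to the rest of its group and 0.66 to ozone at 18 h. For air replicate 5 of day 2 it was -0.52 to the rest of its group and 0.60 to day 2 ozone. For air replicates 1 and 5 of the 18 h harvest it was 0.26 and 0.10 within the group, against 0.70 to ozone at 18 h and 0.61 to day 1 air. The remaining 3 were air arrays of day 1 or day 2 that lay nearer to the air group of the other day. Where leaving out the first 4 together changes a call among the 7 genes, the value or the count without them is given. Counts in the other gene lists changed as well and are given only in part. Those 4 were picked with results of these data known, and leaving out arrays because they lie apart narrows the spread by itself.

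At the end of the first exposure, 5 of the 7 genes fell and none rose past an adjusted p of 0.05 (limma with Benjamini-Hochberg adjustment over all genes tested), in an experiment where 29.5% of all genes passed, 13.1% upward and 16.4% downward. Msmo1, Fdft1 and Idi1 fell by more than 2-fold, and Cyp51 and Srebf2 fell less. Insig1 had the opposite sign and Sqle showed no difference that passed. The median of the 7 differences, ozone minus air on log2(intensity + 16), was -0.49, against 0.0045 over all genes tested. In 4 genes (Srebf2, Idi1, Fdft1 and Msmo1) every ozone array lay below every air array, which held for 8.76% of all genes.

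Srebf2 (chr7:115542774-115600945 in GRCr8) encodes the transcription factor of the pathway. Its intensities in ozone livers of day 1 were 413, 455 and 520.5 (lowest, median and highest of 6 arrays), against 522, 577 and 652 in air livers. The groups did not overlap, though the highest ozone array and the lowest air array nearly met. Srebf2 fell by 0.33 ± 0.061 (log2 difference ± SE), or 1.26-fold (limma, adjusted p = 0.000118). A dimmer probe set of Srebf2, under the filter, read -0.0050 ± 0.034 (limma, adjusted p = 0.939 where every probe set was fitted singly), so only 1 of the 2 probe sets showed the fall. The dimmer one averaged 112.3 units in ozone and 112.9 in air livers of day 1, where medians of nonspecific-binding probes reached 92.0. Whether it reads the transcript was not tested.

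Insig1 (chr4:8049339-8057812), the anchor of the SREBP complex, read 2179, 2721 and 4258 in ozone livers, against 1613, 1736 and 3014 in air livers. Most ozone arrays were brighter than most air arrays, but air replicates 4 and 5 lay within the ozone range. The difference was 0.60 ± 0.24 (limma, adjusted p = 0.0544), just short of the threshold. Leaving out 1 array moved it past the threshold in 4 cases, air replicate 5 of day 1 (0.72, adjusted p = 0.0239), ozone replicate 5 of day 1 (0.69, adjusted p = 0.0351), ozone replicate 5 of day 2 (adjusted p = 0.0112) and air replicate 5 at 18 h (adjusted p = 0.0387). The last 2 enter only through the spread that all groups share. Without the 4 arrays that lay apart, Insig1 passed with 0.60 (adjusted p = 0.00388), where 13.8% of all genes rose.

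Among the enzymes, Idi1 (chr17:66539761-66547524) comes earliest in the pathway, as the isomerase of isopentenyl diphosphate. It read 461, 521 and 661 in ozone livers of day 1, against 903, 943 and 1872 in air livers, with no overlap and with air replicate 4 far above the other air arrays. It fell by 1.03 ± 0.22, or 2.05-fold (limma, adjusted p = 0.000557).

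Fdft1 (chr15:41588114-41616168), squalene synthase, catalyses the step that commits the pathway to sterols. Its intensities were 325, 458 and 565 in ozone livers, against 871, 965 and 1224 in air livers. A wide gap separated all 6 ozone arrays from all 6 air arrays. Fdft1 fell by 1.15 ± 0.17, or 2.21-fold (limma, adjusted p = 5.3e-06), the smallest adjusted p of the 7. Its other probe set fell by 0.66 ± 0.10 (adjusted p = 1.59e-05).

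Sqle (chr7:92758175-92773049), squalene epoxidase, uses molecular oxygen for the next step. It read 309.8, 366 and 462 in ozone livers, against 275, 309 and 573 in air livers. The ozone range lay wholly within the air range, and 1 air array, replicate 4, was the brightest of the 12. The difference was 0.066 ± 0.17 with a 95% interval of -0.27 to 0.40 (limma, adjusted p = 0.804), an interval that holds no fall of the size seen for Idi1, Fdft1 or Msmo1.

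Cyp51 (chr4:30991693-31010147), the cytochrome P450 that demethylates lanosterol, read 1177, 1474 and 1930.2 in ozone livers, against 1851, 2052 and 2657 in air livers. Only ozone replicate 3 reached the air range, above 2 of the 6 air arrays. Cyp51 fell by 0.49 ± 0.14, or 1.4-fold (limma, adjusted p = 0.0069), and its dimmer probe set fell by 0.39 ± 0.14 (adjusted p = 0.0377).

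Msmo1 (chr16:29747113-29764360), the methylsterol monooxygenase that acts after Cyp51, read 497, 685 and 962 in ozone livers, against 1351, 1502 and 2385 in air livers. Again no ozone array reached the lowest air array. Msmo1 fell by 1.27 ± 0.25, or 2.41-fold (limma, adjusted p = 0.000187), the largest fall of the 7.

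**Figure D1:**
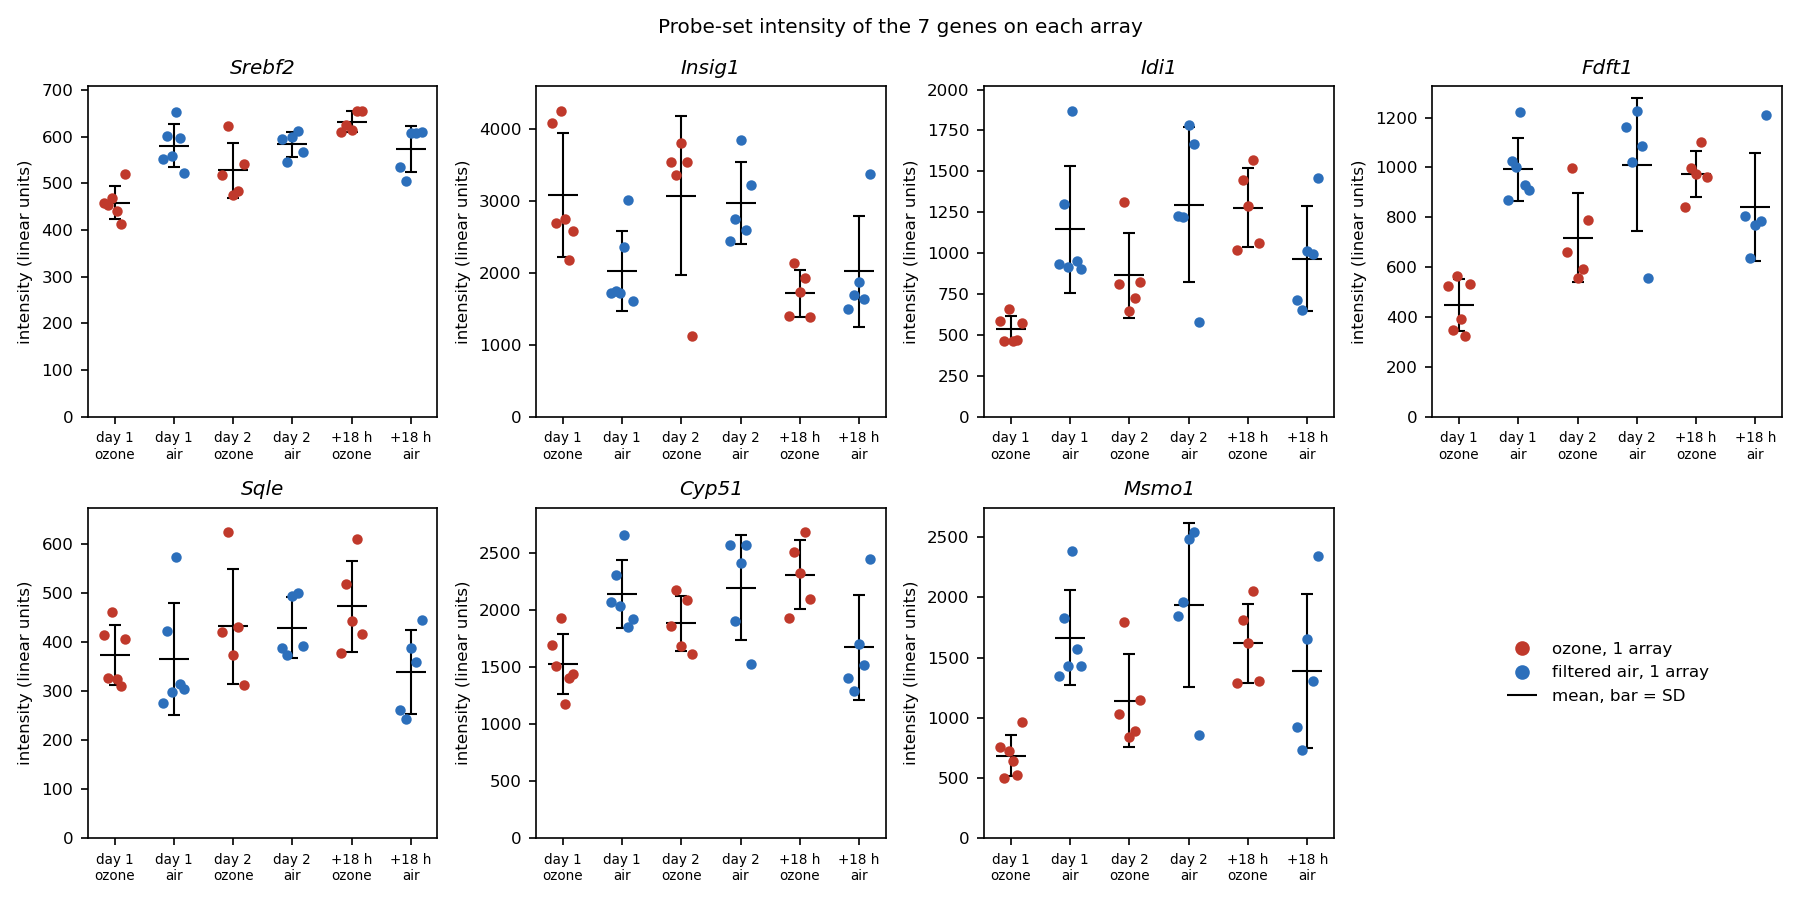
Probe-set intensity (linear units, axes from 0) of the 7 genes on each array, with ozone (red) left of air (blue) at each harvest; a point is 1 array, the line the group mean and the bar its SD. On day 1 the ozone arrays of Srebf2, Idi1, Fdft1 and Msmo1 lie below all air arrays, Insig1 ozone arrays lie mostly above, and single arrays stand apart at the later harvests, such as Insig1 at 1118.6 on day 2 ozone replicate 5.

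After the second exposure none of the 7 genes passed the threshold (limma), with 0 higher and 4 lower at an unadjusted p under 0.05, while 0.705% of all genes passed. The 7 differences were all below 0, with a median of -0.20 against 0.00040 over all genes. In each of the 7 the ozone and air ranges overlapped, and over all genes 0.43% had every ozone array below and 1.06% every ozone array above the air arrays. Much of this turned on 1 air array: without day 2 air replicate 5, Fdft1, Idi1 and Msmo1 fell, when 4.28% of all genes fell.

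Srebf2 read 517, 623, 474, 483 and 541 on the 5 ozone arrays of day 2 (replicates 1 to 5), against 595, 546, 599, 611 and 566 on the 5 air arrays. Of the ozone arrays, 4 lay below all air arrays and replicate 2 above them all. The difference was -0.15 ± 0.067 (limma, adjusted p = 0.336). Insig1 read 3537, 3365, 3802, 3549 and 1119 in ozone livers, against 2450.4, 2744, 3846, 2590.4 and 3218 in air livers. Ozone replicate 5 fell far below the other 4 ozone arrays, whose range lay in the upper part of the air range. The difference was -0.051 ± 0.26 (limma, adjusted p = 0.993), and 0.28 without ozone replicate 5 (adjusted p = 0.598).

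Idi1 read 809, 1312, 648, 726 and 824 in ozone livers of day 2, against 1228, 1222, 1781, 1668 and 580.2 in air livers. Ozone replicate 2 alone reached the range of the 4 brighter air arrays, and air replicate 5 was the lowest of the 10 arrays. The difference was -0.52 ± 0.24 (limma, adjusted p = 0.34), and without air replicate 5 Idi1 fell by 0.78 (adjusted p = 0.0202). Fdft1 read 662, 997, 555, 591 and 789.7 in ozone livers, against 1164, 1023, 1229, 1086 and 555 in air livers. All ozone arrays lay below the 4 brighter air arrays, and air replicate 5 lay with the lowest ozone array. The difference was -0.46 ± 0.18 (limma, adjusted p = 0.222), and without air replicate 5 Fdft1 fell by 0.66 (adjusted p = 0.00933).

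Sqle read 420.2, 624, 373, 429.5 and 311 in ozone livers of day 2, against 388, 373, 494, 499 and 391 in air livers, and the air arrays lay within the ozone range. Its difference was -0.017 ± 0.18 with a 95% interval of -0.39 to 0.35 (limma, adjusted p = 0.999). Cyp51 read 1858, 2171, 1684, 2083 and 1614 in ozone livers, against 2569, 1899.8, 2413, 2570 and 1529 in air livers. The lowest of the 10 arrays was again air replicate 5, and the difference was -0.20 ± 0.15 (limma, adjusted p = 0.676). Msmo1 read 1035, 1794, 845, 893 and 1149 in ozone livers, against 1842, 1963, 2486, 2542 and 857 in air livers. No ozone array reached the 4 brighter air arrays. The difference was -0.71 ± 0.27 (limma, adjusted p = 0.193), and without air replicate 5 Msmo1 fell by 0.98 (adjusted p = 0.0115). In 6 of the 7 genes, all but Insig1, ozone replicate 2 was the brightest ozone array of day 2.

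At 18 h after the second exposure none of the 7 passed either (limma), with 3 higher (Srebf2, Sqle and Cyp51) and 0 lower at an unadjusted p under 0.05, while 1.17% of all genes passed. The differences of 6 genes were above 0 and that of Insig1 below. Their median was 0.31, against 0.015 over all genes. The ranges overlapped in each of the 7, and over all genes 1.89% had every ozone array above and 0.869% every ozone array below the air arrays. Air replicate 5 was the brightest of the 5 air arrays for all 7 genes.

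Srebf2 read 609.6, 625, 614, 656 and 655 on the 5 ozone arrays at 18 h, against 535, 506, 608, 607 and 611 on the 5 air arrays. Of the ozone arrays, 4 lay above all air arrays and replicate 1 just under the brightest air array, and the difference was 0.14 ± 0.067 (limma, adjusted p = 0.4). Insig1 read 1398, 2135, 1731, 1929 and 1392 in ozone livers, against 1504, 1698, 1880, 1641 and 3381 in air livers. Air replicate 5 was far above all the others, and the difference of -0.19 ± 0.26 (limma, adjusted p = 0.866) became 0.014 without it.

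Idi1 read 1019, 1449, 1291, 1573 and 1062 in ozone livers at 18 h, against 711, 653, 1014, 996 and 1458 in air livers. Fdft1 read 841, 998, 975, 1100.4 and 961 in ozone livers, against 805, 637, 769, 787 and 1209.9 in air livers. For both genes all ozone arrays were brighter than 4 of the 5 air arrays, and air replicate 5 lay inside or above the ozone range. The differences were 0.44 ± 0.24 for Idi1 (limma, adjusted p = 0.497) and 0.24 ± 0.18 for Fdft1 (adjusted p = 0.689).

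Sqle read 377, 518, 442, 609 and 415 in ozone livers at 18 h, against 262, 244, 388, 358 and 445 in air livers. The groups overlapped, and the difference was 0.47 ± 0.18 (limma, adjusted p = 0.234), the largest that Sqle showed at any of the 3 harvests. Cyp51 read 1928, 2507, 2328, 2683 and 2099 in ozone livers, against 1404, 1290.3, 1705, 1522 and 2445 in air livers. Every ozone array was brighter than 4 of the 5 air arrays. The difference was 0.49 ± 0.15 (limma, adjusted p = 0.105), and without air replicate 5 Cyp51 rose by 0.63 (adjusted p = 0.0319), when 0.74% of all genes passed in either direction. It rose without the 4 arrays that lay apart, by 0.61 (adjusted p = 0.0068), when 4.95% of all genes passed. Msmo1 read 1293, 1816, 1622, 2054 and 1306 in ozone livers, against 921, 731, 1655, 1306 and 2342 in air livers. The air arrays spread over a wider range than the ozone arrays, on both sides, and the difference was 0.31 ± 0.27 (limma, adjusted p = 0.731). Beside these 18 h values, the summed level of 8 Kupffer cell markers was 3024.5 to 4275 in ozone livers and 4417 to 5061.5 in air livers, with no overlap, while 0 of the 8 passed the threshold (limma, 0 higher and 4 lower at an unadjusted p under 0.05). None of them was at 0, and their part in the result was not tested.

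**Figure D2:**
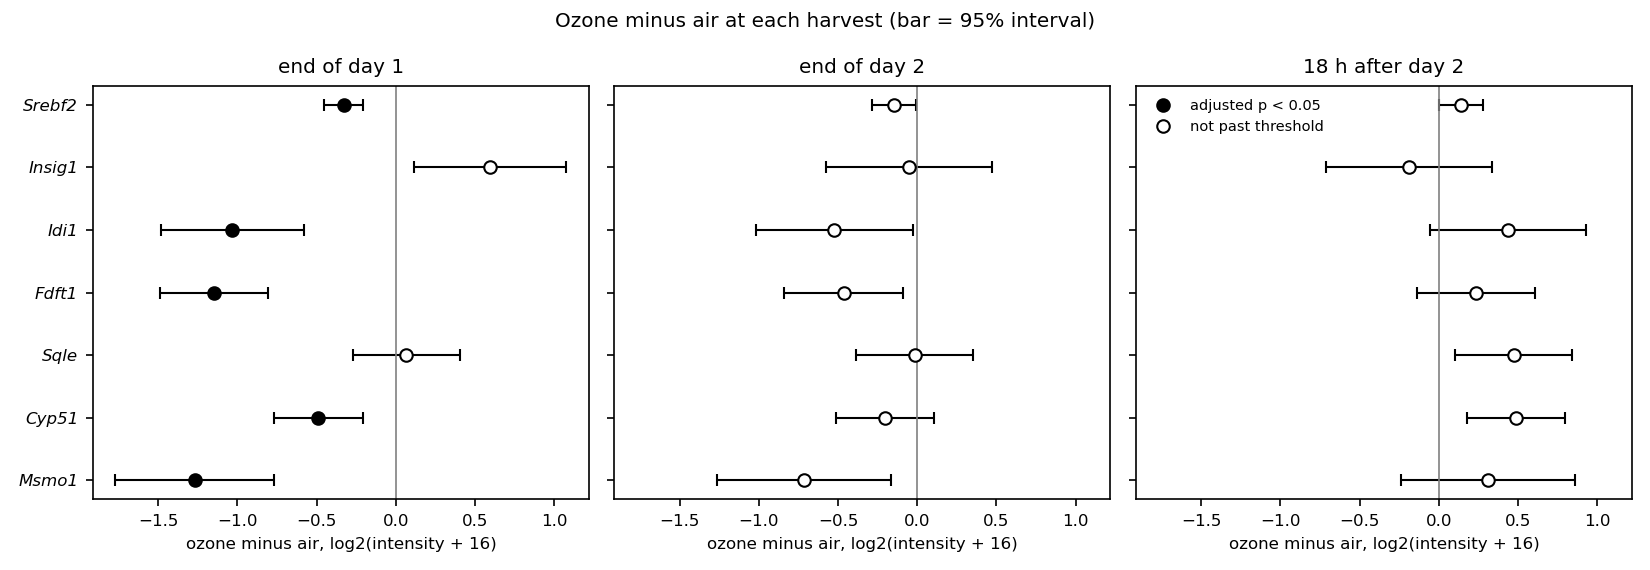
Ozone minus air on log2(intensity + 16) for each gene at the 3 harvests; the bar is limma's 95% interval, and filled points have an adjusted p under 0.05. The 5 filled points all lie on day 1 and below 0, Insig1 on day 1 lies at 0.60, and at 18 h all but Insig1 lie above 0.

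The study's harvests address how the response changes as exposure is repeated and after it ends, and the ozone effects can be set against each other. Each such difference uses both ozone and air groups of 2 harvests. The difference between the ozone effect at 18 h after day 2 and that on day 1 was added after the values were seen. It was above 0 and past the threshold for 5 of the 7 genes, with 12.4% of all genes past it upward and 20.4% in either direction. The sizes were 0.47 ± 0.091 for Srebf2 (limma, adjusted p = 0.000416), 1.47 ± 0.33 for Idi1 (adjusted p = 0.00159) and 1.38 ± 0.25 for Fdft1 (adjusted p = 0.000209). On its dimmer probe set Srebf2 had -0.057 (adjusted p = 0.599), which ends that call and leaves 4 genes. The sizes were 0.98 ± 0.20 for Cyp51 (limma, adjusted p = 0.000888) and 1.58 ± 0.36 for Msmo1 (adjusted p = 0.0021). These 5 genes fell on day 1, and their differences at 18 h were above 0 without passing there. Sqle had 0.41 ± 0.25 (limma, adjusted p = 0.28) and Insig1 -0.78 ± 0.35 (adjusted p = 0.118), the opposite sign. Without ozone replicate 5 of day 2, which enters through the shared spread alone, the same Insig1 value had an adjusted p of 0.0335.

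Between consecutive harvests the calls were fewer. The ozone effect on day 2 minus that on day 1 passed for 0 of the 7 (limma, 1 higher at an unadjusted p under 0.05, Fdft1 with 0.68 ± 0.25), and for 5.09% of all genes. The ozone effect at 18 h minus that on day 2 passed for 0 of the 7 (limma, 5 higher and 0 lower at an unadjusted p under 0.05) and for 0.0086% of all genes. That count depended on day 2 air replicate 5. Without it the effect at 18 h exceeded that on day 2 for 4 genes, Idi1 (1.22, adjusted p = 0.03), Fdft1 (0.90, adjusted p = 0.032), Cyp51 (0.81, adjusted p = 0.0318) and Msmo1 (1.29, adjusted p = 0.0439), when 1.2% of all genes passed upward. The count was also 4 without the 4 arrays that lay apart, when 9.74% of all genes passed in either direction.

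The levels of all 6 groups show how these differences are made up. Srebf2 averaged 459 ± 35.7, 528 ± 59.4 and 632 ± 22.4 units in ozone livers of day 1, day 2 and 18 h after day 2 (SD, n = 6, 5 and 5), against 580.4 ± 45.9, 584 ± 26.6 and 573 ± 49.4 in the air livers of the same harvests (n = 6, 5 and 5). Fdft1 averaged 447 ± 105, 719 ± 179.6 and 975 ± 92.7 in the ozone livers, against 993 ± 127, 1011 ± 266 and 842 ± 216 in the air livers. Msmo1 averaged 685 ± 171, 1143 ± 383 and 1618 ± 329 in the ozone livers, against 1666 ± 391, 1938 ± 679 and 1391 ± 639.9 in the air livers. For these 3 genes the ozone mean was lowest on day 1 and highest at 18 h, while the 3 air means of a gene differed by less than the largest of their SDs. Idi1 averaged 535 ± 83.4, 864 ± 260.4 and 1279 ± 239.7 in the ozone livers, against 1146 ± 386, 1296 ± 473 and 966 ± 319.6 in the air livers. Cyp51 averaged 1526 ± 259, 1882 ± 243 and 2309 ± 303 in the ozone livers, against 2139.6 ± 297, 2196 ± 463 and 1673 ± 458 in the air livers. Both had the same order of ozone means as the 3 genes before. Sqle averaged 373 ± 61.7, 432 ± 117 and 472 ± 92 in the ozone livers, against 364 ± 114, 429 ± 61.9 and 339 ± 85.3 in the air livers. Insig1 averaged 3090.2 ± 862, 3074 ± 1104 and 1717 ± 327 in the ozone livers, against 2029 ± 551, 2969.8 ± 569 and 2021 ± 772 in the air livers. Insig1 thus had its lowest ozone mean at 18 h, where the other 6 genes had their highest.

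Tested within the ozone livers, day 2 minus day 1, 2 of the 7 genes rose, against 8.47% of all genes upward and 14.5% in either direction. Fdft1 rose by 0.66 ± 0.18 (limma, adjusted p = 0.00969) and Srebf2 by 0.19 ± 0.064 (adjusted p = 0.0407). The Srebf2 call was marginal and was lost without any of 8 ozone arrays of the 11 (replicates 1 to 5 of day 1 and 1, 2 and 5 of day 2, adjusted p between 0.0551 and 0.176). Idi1, with 0.64 ± 0.23 (adjusted p = 0.0589), and Msmo1, with 0.71 ± 0.26 (adjusted p = 0.063), lay just short of the threshold. Both passed without day 2 ozone replicate 3, day 2 air replicate 5 or 18 h air replicate 5, Idi1 also without day 1 air replicate 4, and Msmo1 also without day 1 ozone replicate 6 or 18 h air replicate 2 (adjusted p between 0.0217 and 0.0479). Without the 4 arrays that lay apart, Fdft1, Idi1 (0.65, adjusted p = 0.03) and Msmo1 (0.69, adjusted p = 0.0368) rose and Srebf2 did not pass (0.18, adjusted p = 0.0962), when 11.5% of all genes passed.

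Within the ozone livers, 18 h after day 2 minus day 2, 1 of the 7 genes rose and none fell, against 7.1% of all genes upward and 11.3% in either direction. Srebf2 rose by 0.26 ± 0.067 (limma, adjusted p = 0.0118), a call lost without day 2 ozone replicate 3 (adjusted p = 0.0521) or replicate 4 (adjusted p = 0.0516). Fdft1 had 0.46 ± 0.18 (adjusted p = 0.108) and passed without day 2 ozone replicate 2 (0.58, adjusted p = 0.0466) or day 2 air replicate 5 (adjusted p = 0.0456). Insig1 had -0.73 ± 0.26 (limma, adjusted p = 0.0626). Without day 2 ozone replicate 5, the array whose Insig1 value lay far below its group, Insig1 fell by 1.07 (adjusted p = 0.000578). Insig1 also passed without 18 h air replicate 5 (adjusted p = 0.0438). Without the 4 arrays that lay apart, Srebf2, Idi1 (0.58, adjusted p = 0.0475) and Fdft1 (0.50, adjusted p = 0.0171) rose and Insig1 fell (adjusted p = 9.72e-05), when 19.8% of all genes passed.

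Air livers were compared in the same way. Day 2 minus day 1 passed for 0 of the 7 genes (limma, 1 higher, Insig1, at an unadjusted p under 0.05) and for 0.0086% of all genes. Insig1 had 0.56 ± 0.25 there (adjusted p = 0.727). At 18 h after day 2 minus day 2 it was also 0 of the 7 (limma, 2 lower, Insig1 and Cyp51, at an unadjusted p under 0.05), with 0.12% of all genes past the threshold. Insig1 had -0.60 ± 0.26 (adjusted p = 0.436) and Cyp51 -0.40 ± 0.15 (adjusted p = 0.348). All 7 differences of this comparison were below 0. Fdft1 and Cyp51 fell there without the 4 arrays that lay apart, when 2.63% of all genes passed.

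The order of the 6 group means, on the log2 scale, put day 1 ozone lowest for 5 genes, Srebf2, Idi1, Fdft1, Cyp51 and Msmo1. For 4 of these, all but Cyp51, the step from day 2 ozone down to day 1 ozone exceeded the larger SD of both groups, with 0.66 against 0.34 for Fdft1 and 0.71 against 0.43 for Msmo1. The step was 0.64 against 0.38 for Idi1 and 0.19 against 0.15 for Srebf2. Srebf2 was highest in ozone at 18 h, 0.11 above the next group (day 2 air) against an SD of 0.065. No other step between neighbouring groups exceeded the larger SD in any of the 7 genes. Sqle was lowest in 18 h air, and Insig1 was highest in day 1 ozone and lowest in 18 h ozone.

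**Figure D3:**
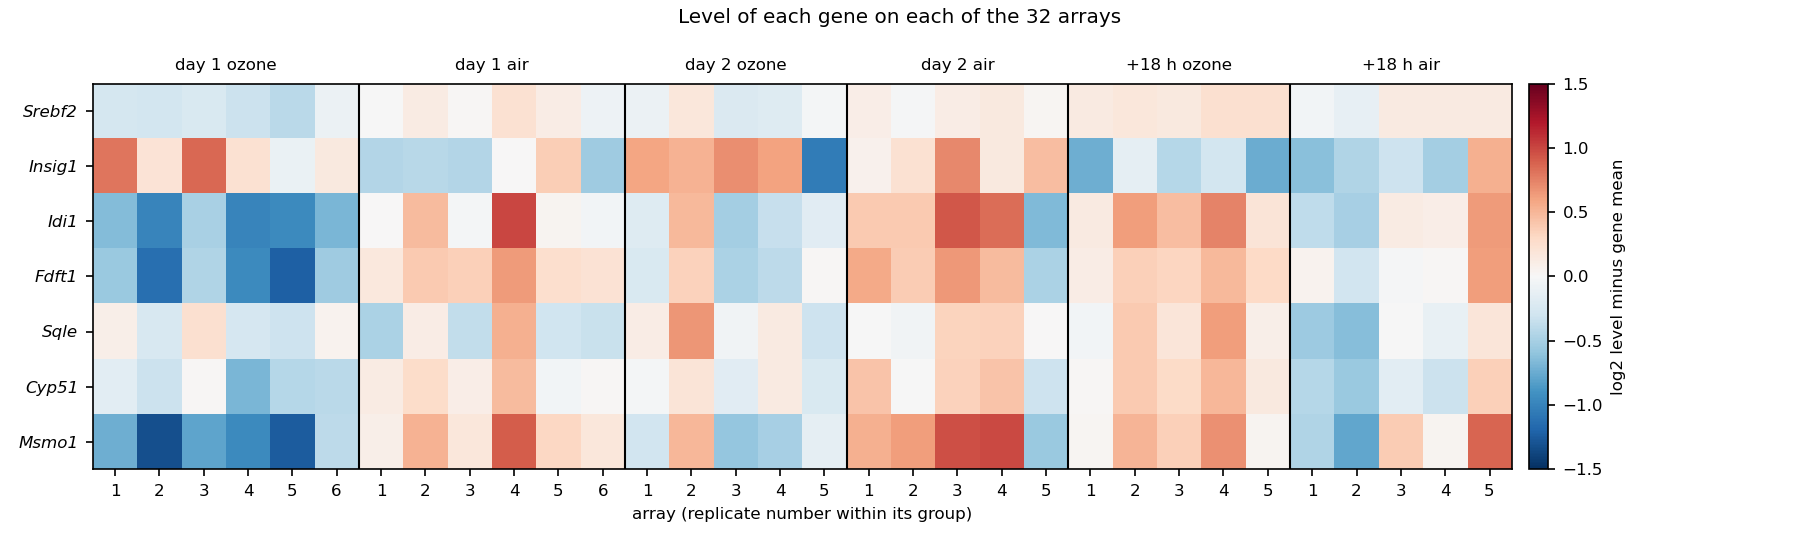
Level of each gene on each of the 32 arrays as log2(intensity + 16) minus the gene's mean over all arrays (colour scale from -1.5 to 1.5), with ozone left of air at each harvest. Day 1 ozone arrays are low for all genes but Insig1 and Sqle, day 2 air replicate 5 is low in its group for Idi1, Fdft1 and Msmo1, and 18 h air replicate 5 is the highest of its group for all 7, though for Srebf2 by little (610.6 against 608.4).

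Across the 32 arrays the enzymes varied together, Sqle less closely than the others. Pearson's r between pairs, a description over arrays that share 6 groups and 3 harvests, reached 0.97 for Msmo1 and Idi1, 0.95 for Msmo1 and Fdft1, and 0.94 for Idi1 and Fdft1. With each group's mean subtracted, so that only the spread within groups remained, these were 0.94, 0.88 and 0.87. Among pairs of enzymes r was lowest for Sqle and Fdft1, at 0.40 over all arrays and 0.63 within groups. Each gene was also set against the mean of the other 6. For 6 genes this r lay between 0.66 (Sqle) and 0.92 (Idi1), and between 0.69 (Srebf2) and 0.90 (Idi1) within groups. Insig1 had r = -0.071, and 0.38 within groups. It was lowest against Srebf2, at -0.33 over all arrays.

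Outside the 7, the genes most like their mean over the 32 arrays were Lss (r = 0.92), Fdps (0.86), Echdc1 (0.85), Acat2 (0.85), Mvd (0.85) and Erg28 (0.84). Lss is lanosterol synthase, Fdps farnesyl diphosphate synthase, Acat2 the acetoacetyl-CoA thiolase at the head of the pathway, Mvd mevalonate diphosphate decarboxylase, and Erg28 an endoplasmic reticulum scaffold of sterol enzymes. Within groups they were Dhcr7 (0.89), the reductase that makes cholesterol from its last precursor, Acss2 (0.89), an acetyl-CoA synthetase, Lss (0.88), Fdps (0.87), Mvk (0.85), mevalonate kinase, and Acat2 (0.83).

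The rest of the pathway was read from lists of its genes. Of 15 further cholesterol synthesis enzymes listed, 13 were tested, and at the end of day 1 4 of the 13 fell and 1 rose, where 16.4% of all genes fell and 13.1% rose, with a median of -0.24 against 0.0045 over all genes. Nsdhl, a sterol dehydrogenase of the demethylation complex in which Msmo1 acts, fell by 0.58 ± 0.11 (limma, adjusted p = 0.000188). Lss fell by 0.52 ± 0.13 (adjusted p = 0.00218), Sc5d, a sterol desaturase, by 0.40 ± 0.11 (adjusted p = 0.00637), and Mvd by 0.24 ± 0.075 (adjusted p = 0.0136). Hsd17b7, the ketoreductase of the same demethylation complex, rose by 0.52 ± 0.12 (limma, adjusted p = 0.00105), while Nsdhl and Msmo1, which act beside it, fell. On day 2, 0 of the 13 passed (limma, 0 higher and 5 lower at an unadjusted p under 0.05), beside 0.705% of all genes. The median was -0.15. At 18 h after day 2, 1 rose, Ebp, a sterol isomerase, by 0.42 ± 0.071 (limma, adjusted p = 0.00366), beside 0.86% of all genes. The median there was 0.15. In the comparison added after the values were seen, the ozone effect at 18 h exceeded that on day 1 for 6 of the 13. These were Fdps, Nsdhl, Lss, Sc5d, Ebp and Tm7sf2, between 0.50 and 0.83. The effect at 18 h lay below that on day 1 for Hsd17b7, at -0.53 ± 0.18 (limma, adjusted p = 0.0319). Of all genes, 12.4% passed upward and 7.96% downward in this comparison.

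Of 9 genes of SREBP processing and sterol sensing, 6 were tested, and 4 fell and 0 rose on day 1, beside 16.4% and 13.1% of all genes. Scap, the escort of the SREBPs, fell by 0.24 ± 0.047 (limma, adjusted p = 0.000231), and Srebf1, the family member that mainly drives fatty acid synthesis in liver, by 0.60 ± 0.21 (adjusted p = 0.0343). Rnf145 and Rnf139, ubiquitin ligases of the endoplasmic reticulum, fell by 0.22 ± 0.058 (adjusted p = 0.00366) and 0.21 ± 0.067 (adjusted p = 0.0152). Insig2, the paralogue of Insig1, had 0.12 ± 0.17 (adjusted p = 0.629). None of the 6 passed on day 2 (limma, 0 higher and 1 lower at an unadjusted p under 0.05) or at 18 h (1 higher and 0 lower). Without the 4 arrays that lay apart, 1 rose and 1 fell on day 2, when 13.5% of all genes passed. At 18 h 1 rose without them, when 4.95% of all genes passed.

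Sterol handling outside synthesis was read from 2 lists, beside the 16.4% of all genes that fell on day 1. Of 5 tested genes of uptake and transfer, 1 fell on day 1, Lipa, the lysosomal acid lipase, by 0.43 ± 0.12 (limma, adjusted p = 0.00617). Of 9 tested genes of efflux, esterification and LXR targets, 3 fell on day 1, the cholesterol exporter Abca1 by 0.42 ± 0.10 (limma, adjusted p = 0.00137), the LXR gene Nr1h3 by 0.26 ± 0.066 (adjusted p = 0.00243) and the biliary sterol transporter Abcg5 by 0.18 ± 0.062 (adjusted p = 0.0264). Lcat, which esterifies cholesterol in plasma, rose on day 2 by 0.18 ± 0.043 (limma, adjusted p = 0.0451), when 0.465% of all genes rose. In the isoprenoid branch, which leaves the pathway before Fdft1, 3 of 7 tested genes rose on day 1 and none fell, beside 13.1% and 16.4% of all genes. Nus1 and Dhdds, the subunits of the enzyme that makes dolichol, rose by 0.40 ± 0.047 (limma, adjusted p = 2.77e-07) and 0.35 ± 0.059 (adjusted p = 3.77e-05), and Fnta, a subunit of protein farnesyltransferase, by 0.15 ± 0.046 (adjusted p = 0.0102).

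Fatty acid synthesis is driven mainly by SREBF1 and in part by SREBF2. Of 11 tested genes, 4 fell on day 1 (Acly, Fads1, Fads2 and Me1, by 0.42 to 1.10), beside 16.4% of all genes. On day 2, 4 fell, when none of the 7 sterol genes and 0.705% of all genes passed. Scd, stearoyl-CoA desaturase, fell by 2.27 ± 0.45 on day 2 (limma, adjusted p = 0.0252), Acly, ATP citrate lyase, by 1.26 ± 0.29 (adjusted p = 0.0451), Fasn, fatty acid synthase, by 1.13 ± 0.25 (adjusted p = 0.043), and Fads2, a desaturase, by 0.90 ± 0.16 (adjusted p = 0.0109). At 18 h Scd alone of the 11 passed and fell by 2.13 ± 0.45 (limma, adjusted p = 0.0168), when 0.31% of all genes fell and 1.17% passed in either direction. Whether the fatty acid and sterol genes differ from each other was not tested. Without the 4 arrays that lay apart, 5 of the 13 further cholesterol enzymes and 10 of the 11 fatty acid genes fell on day 2, beside 3 of the 7, when 13.5% of all genes passed.

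**Figure D4:**
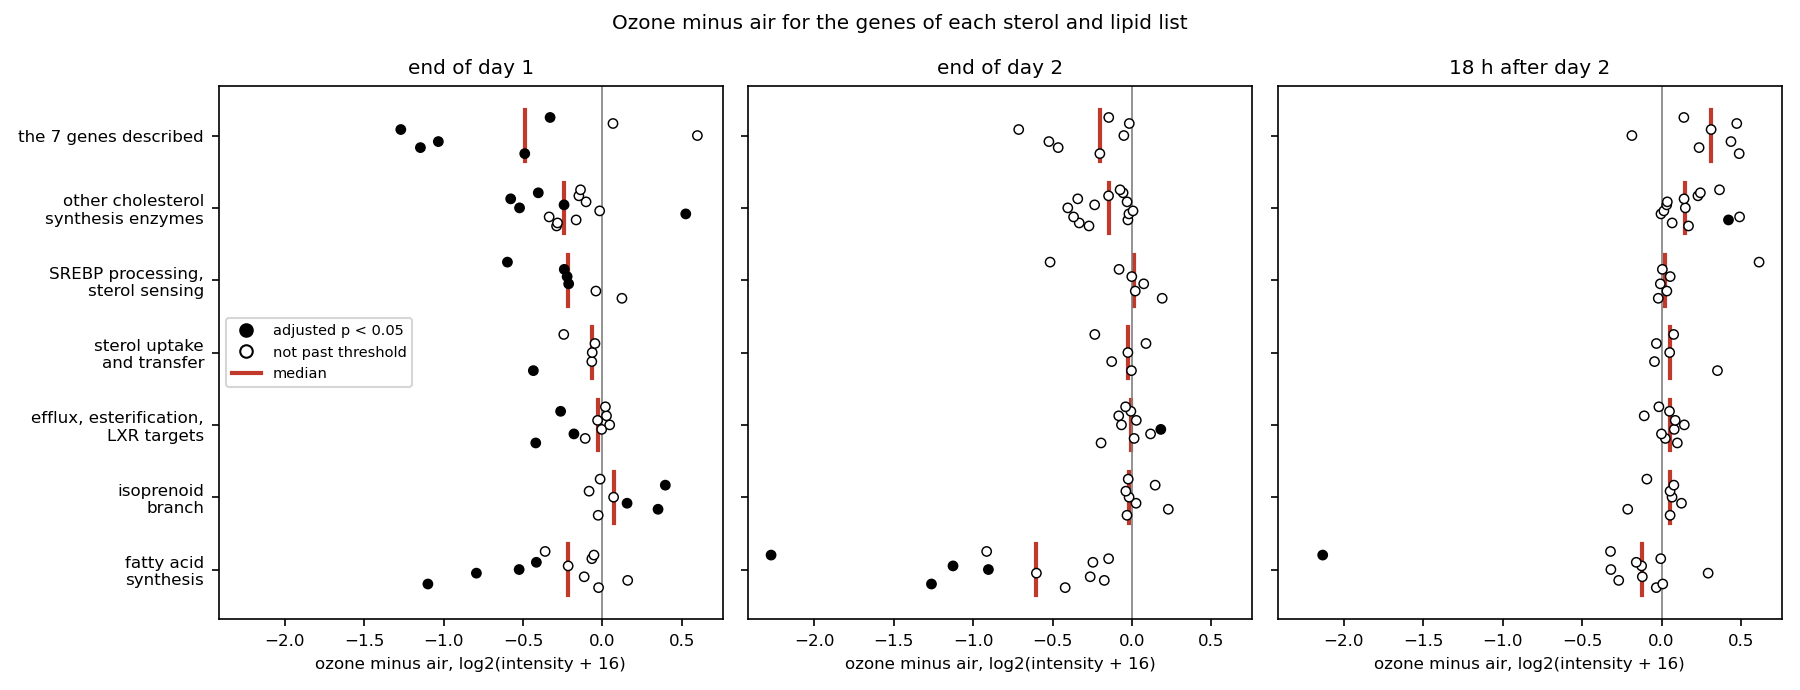
Ozone minus air on log2(intensity + 16) for every tested gene of 7 lists at the 3 harvests; a point is 1 gene, filled where its adjusted p is under 0.05, and the red line is the list's median. The 7 genes have medians of -0.49, -0.20 and 0.31 at the 3 harvests, and the fatty acid list reaches -2.27 (Scd) on day 2.

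Markers of other liver cell types were read beside these changes. On day 1 the summed level of the 8 Kupffer cell markers was 3792.1 to 6408.8 in ozone livers and 4437.7 to 5541.3 in air livers, with overlap. That of 6 endothelial markers was 2377.6 to 3191.4 in ozone livers and 2531.4 to 3316.1 in air livers, and that of 8 stellate cell markers 2357.8 to 3042.4 in ozone livers and 2655.4 to 3267.7 in air livers, both with overlap. At that harvest a single marker fell in each of the Kupffer (Adgre1, of 8), stellate (Lrat, of 8), neutrophil and monocyte (Ly86, of 3), lymphocyte (Ptprc, of 5) and cholangiocyte lists (Epcam, of 5). Of the 6 endothelial markers, Tek and Stab2 fell on day 1, and Stab2 rose at 18 h. Beside these counts, 16.4% of all genes fell on day 1 and 0.86% rose at 18 h. Of 2 erythroid markers none passed at any harvest (limma, 0 at an unadjusted p under 0.05). The summed level of the 8 hepatocyte markers was 67437.2 to 73130 in ozone livers and 69297.4 to 73289.6 in air livers on day 1, 71153.3 to 72900 in ozone livers and 70079.5 to 71616.5 in air livers on day 2, and 65835.8 to 72880.4 in ozone livers and 69629.9 to 72864.5 in air livers at 18 h. None of the 8 passed at any harvest (limma), with 1 at an unadjusted p under 0.05 at each, lower on day 1 and at 18 h and higher on day 2. The part of other cells in the sterol gene results was not tested. Without the 2 arrays of low nonspecific signal, both of day 1, the same 5 genes fell on day 1.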

How the data were processed

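The members and gene lists were chosen with earlier results of these data known. The deposited table gives linear intensities per probe set. The submitters' processing notes name PLIER and Affymetrix Expression Console as the authors' tools, with versions not given in the sources used here. The table held 31139 probe sets on 32 arrays, with values of 30.5 to 15558 and none at 0. Of these, 97 were controls, 11407 had no gene in the annotation and 573 several; neither kind was used. The brightest of a gene's single-gene probe sets by mean log2(intensity + 16) stood for it, and genes under the 25th percentile were left out, so that 11625 of 13437 genes were tested. The offset shrinks fold changes of dim genes. PLIER values keep nonspecific signal, which does so too.

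A model of 6 group means was fitted to log2(intensity + 16) of all 32 arrays with limma 3.58.1 (lmFit, contrasts, eBayes with a trend) in R 4.3.3, with Benjamini-Hochberg adjustment over all genes tested and a threshold of 0.05. All groups share the estimate of spread. Tables were handled with pandas 2.3.3 and numpy 2.4.6, and plots drawn with matplotlib 3.10.9, in Python 3.11.15. The fit was tested on simulated data. The genes named are the 7 members, up to 4 genes per pathway list and harvest with the smallest p among those past the threshold in ozone minus air, and the 6 genes most like the members' mean in either measure. Mvd, Insig2, the list genes named for the difference of ozone effects and the marker genes fall outside this rule and were chosen after their values were seen. Alternatives covered the offset, the filter, array scaling, the choice of probe set, the arrays fitted, the replicate number as a block and each array left out. Array scan dates were not used here. Promoters came from RefSeq (GRCr8).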

Additional observations from a re-analysis of the deposited data

Results flagged for a closer look

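Within groups of 5 or 6 arrays, the gap of an array to the nearest other array was divided by the group's range. Gap and range were taken on the log2 scale, whereas the readings printed below are linear intensities. An array was looked at again where this ratio exceeded Dixon's 95% critical value (0.71 for 5 arrays). Of 42 sets of 1 gene in 1 group, 3 did so, and chance gives about 1 in 20 groups. Insig1 on ozone replicate 5 of day 2 read 1118.6, the lowest, with the other 4 ozone arrays between 3364.6 and 3802.1 (ratio 0.9). Insig1 on air replicate 5 of the 18 h harvest read 3381.1, the highest, with the other 4 between 1503.6 and 1880.0 (ratio 0.725). Fdft1 on air replicate 5 of day 2 read 555.3, the lowest, with the other 4 between 1022.6 and 1228.6 (ratio 0.768). These 3 arrays are among the 7 that correlated better with another group over all genes, and among the 4 of those that were left out together.

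The ozone effect differed between harvests for 5 genes, as 18 h after day 2 minus day 1 on the log2 scale in the same limma fit, a comparison added after the values were seen. The differences were 1.38 for Fdft1, 1.58 for Msmo1, 0.47 for Srebf2, 1.47 for Idi1 and 0.98 for Cyp51, each with an adjusted p of 0.0021 or less. Of all genes, 12.4% passed upward and 20.4% in either direction. The dimmer Srebf2 probe set had -0.057 (limma, adjusted p = 0.599) and did not pass.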

How the results depend on the processing

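Of 840 log2 differences of the 7 genes (10 comparisons under each planned or added alternative that kept all arrays or left out several), 795 kept their direction and their side of the threshold, and of 2240 with 1 array left out, 2178 did. Many of these differences could not change, so the totals do not measure robustness. Leaving out an array of a group outside the comparison keeps the difference and can move only its p. Sqle, Msmo1, Insig1 and Idi1 have a single probe set, so the choice of probe set could not alter their differences. The median over all genes moved by less than 0.02 under every scaling. The 5 falls on day 1 passed in each of these fits, except Srebf2 read on its dimmer probe set (adjusted p = 0.939). The cause of the changes below was not tested. The count of genes that rose on day 1 was 1 in place of 0 (Insig1) with a filter at the 50th percentile, with quantile normalization, with only the compared groups in the fit, and without the 4 arrays closer to another group. Without those 4 arrays, 3 genes fell on day 2 (13.5% of all genes passed, against 0.705% with all arrays), 1 rose at 18 h (4.95% against 1.17%), the ozone effect at 18 h exceeded that on day 2 for 4 (9.74% against 0.0086%), 2 fell in air at 18 h minus day 2 (2.63% against 0.12%), and in ozone livers at 18 h minus day 2 3 rose and 1 fell (19.8% against 11.3%). The count of 2 that rose in ozone livers, day 2 against day 1, was 1 with array medians made equal, with quantile normalization, with the dimmer probe sets, without the 2 arrays of low nonspecific signal, and with the replicate block, and it was 3 with a filter at the 50th percentile (Idi1 gained, adjusted p = 0.0496), with only the compared groups (Idi1 and Msmo1 gained, adjusted p = 0.0147 and 0.0287, Srebf2 lost, 0.101) and without the 4 arrays (11.5% of all genes passed, against 14.5%). With the dimmer probe sets the 1 rise at 18 h against day 2 became 0.

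Ozone and air arrays share replicate numbers, and little sign of pairing by number was seen. Of 16 pairs, 2 had correlated deviations over 0.1 (range -0.58 to 0.26), and 1 ozone array correlated best with the air array of its number. With so few arrays per group, this check cannot exclude a shared batch. With the replicate block, Srebf2 in ozone livers, day 2 minus day 1, had an adjusted p of 0.0698, and Cyp51 in air livers, day 2 minus day 1, was -0.0012.

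Signs turned where values lay near 0 or the probe set changed. In air livers, day 2 minus day 1, Srebf2 was -0.0082 with equal medians, Fdft1 0.0028 with quantile normalization, 0.066 with the dimmer probe set and 0.18 without the 4 arrays, and Cyp51 -0.080 with the dimmer probe set. The dimmer Srebf2 probe set, which lies under the filter, gave -0.061 at 18 h, -0.019, -0.037 and -0.057 for the differences of ozone effects (day 2 minus day 1, 18 h minus day 2, 18 h minus day 1) and -0.041 in ozone livers at 18 h minus day 2. Insig1 in ozone livers, day 2 minus day 1, was 0.017 without the 2 arrays of low nonspecific signal and 0.25 without the 4, where on day 2 ozone minus air was 0.31 for Insig1 and 0.057 for Sqle.

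With 1 array left out, the counts of genes past the threshold ranged over 0 to 1 higher on day 1, 0 to 3 lower on day 2, 0 to 1 higher at 18 h, 0 to 4 higher for the ozone effect at 18 h minus day 2, 0 to 1 lower for that at 18 h minus day 1, 1 to 4 higher in ozone livers, day 2 minus day 1, and 0 to 2 higher with 0 to 1 lower in ozone livers, 18 h minus day 2. Ozone minus air ranged over -0.0013 to 0.20 for Sqle on day 1, -0.16 to 0.087 for Sqle and -0.16 to 0.28 for Insig1 on day 2, and -0.28 to 0.014 for Insig1 at 18 h. The difference of ozone effects ranged over -0.22 to 0.020 for Sqle (day 2 minus day 1) and -0.47 to 0.066 for Insig1 (18 h minus day 2). In air livers, day 2 minus day 1, the ranges were -0.10 to 0.18 for Fdft1, -0.019 to 0.043 for Srebf2, -0.0035 to 0.39 for Idi1 and -0.043 to 0.14 for Cyp51, and at 18 h minus day 2 -0.051 to 0.015 for Srebf2. Insig1 in ozone livers, day 2 minus day 1, ranged over -0.19 to 0.25. The number of arrays and the nonspecific signal in the values limit what could be seen of small changes.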
